A study of Homo sapiens with 8 samples.

Results

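The claudins are the transmembrane proteins that form the strands of tight junctions between epithelial cells. The 10 claudin genes described here, CLDN1, CLDN2, CLDN3, CLDN4, CLDN6, CLDN7, CLDN10, CLDN12, CLDN15 and CLDN18, were chosen by symbol from a table of 58870 genes, which holds 24 numbered claudin genes in all. They were measured by bulk RNA sequencing in the established cell line CFPAC-1, which derives from a human pancreatic ductal adenocarcinoma. Of the 8 libraries, 4 came from cells with an empty vector and 4 from cells with an ADRA2A transgene, and all cells were grown untreated for 72 hours. ADRA2A encodes the alpha-2A adrenergic receptor, which couples to Gi and lowers cyclic AMP, and the study's title links it to the basal-like subtype of pancreatic cancer. The promoter of the transgene, and whether each cell population was a pool or 1 clone, are not given in the sources used here. Nothing in the labels says that the 4 samples of a group were separate cultures, so the p-values measure the spread between these samples, which may be technical.

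Each claudin crosses the membrane 4 times, and its extracellular loops meet those of claudins on the neighbouring cell. Sealing claudins tighten the space between cells, whereas channel-forming claudins leave charge-selective pores through which ions, and for some members water, pass between the cells. Most claudins bind scaffold proteins of the ZO family through the end of their cytoplasmic tail. In the pancreatic duct these junctions separate the bicarbonate-rich lumen from the tissue, and CLDN18 and CLDN4 are known as surface antigens of pancreatic tumours.

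Library totals lay between 14427035 and 17528915 estimated counts. ADRA2A had 0 counts in each empty-vector library and 112, 142, 154 and 172 counts in ADRA2A replicates 1 to 4. With 3 counts per library taken as the upper limit of a zero, its level was at least 49.2-fold higher, as the labels state. Markers of ductal epithelium summed to between 11700 and 12300 counts-per-million (CPM) in the empty-vector libraries and between 11400 and 12500 CPM in the ADRA2A libraries. Of these markers KRT19 and EPCAM rose, KRT7, KRT18 and CDH1 fell and KRT8 did not pass, with log2 fold changes between -0.43 (KRT7) and 0.20 (KRT19). CFTR, a channel of pancreatic duct cells, was near 0 in both groups, at 0.708 ± 0.309 and 0.431 ± 0.122 CPM (SD, n = 4 each). All 3 islet markers and the endothelial claudin CLDN5 were at 0 counts in every library. The immune markers summed to 88.2 to 95.1 CPM with the empty vector and 108 to 119 CPM with ADRA2A. Nearly all of that sum was CD68, at 91.6 ± 2.75 and 114 ± 4.6 CPM, whereas the leukocyte marker PTPRC stayed at 0.113 ± 0.105 and 0.0495 ± 0.0990 CPM (SD, n = 4 each). The endothelial markers summed to 0.820 to 1.49 and 2.15 to 2.85 CPM. Among them PECAM1 rose (log2 fold change 1.66, edgeR adjusted p = 8.12e-05), whereas VWF had 15 counts over the empty-vector libraries and 2 over the ADRA2A libraries, and CDH5 had 1 and 0. The fibroblast markers summed to 1.83 to 2.21 and 0.969 to 1.6 CPM. The part of these sums in the claudin results was not tested. In bulk RNA, fewer cells expressing a gene and less RNA per cell cannot be told apart.

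The pore-forming claudin CLDN2 roughly doubled in the ADRA2A cells, with a fold change of 1.97, the largest change among the 8 members tested. CLDN10, another channel former, rose 1.37-fold and CLDN12 rose 1.12-fold, while CLDN7 fell to 0.813 of its empty-vector level. CLDN4, the highest claudin per length of canonical transcript, and CLDN1, CLDN3 and CLDN15 did not pass the test. CLDN18 and CLDN6 were too low to test. Of the 8 members that passed the filter on low counts, 4 had an adjusted p-value under 0.05, 3 of them higher and 1 lower (edgeR quasi-likelihood test, Benjamini-Hochberg adjustment over 14785 genes). That is 50% of the 8, where 42.7% of all genes tested passed, 21.6% higher and 21.1% lower. The median log2 fold change of the 8 was 0.12, beside 0.00 for all genes tested, and their median absolute log2 fold change was 0.20, beside 0.18.

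**Figure D1:**
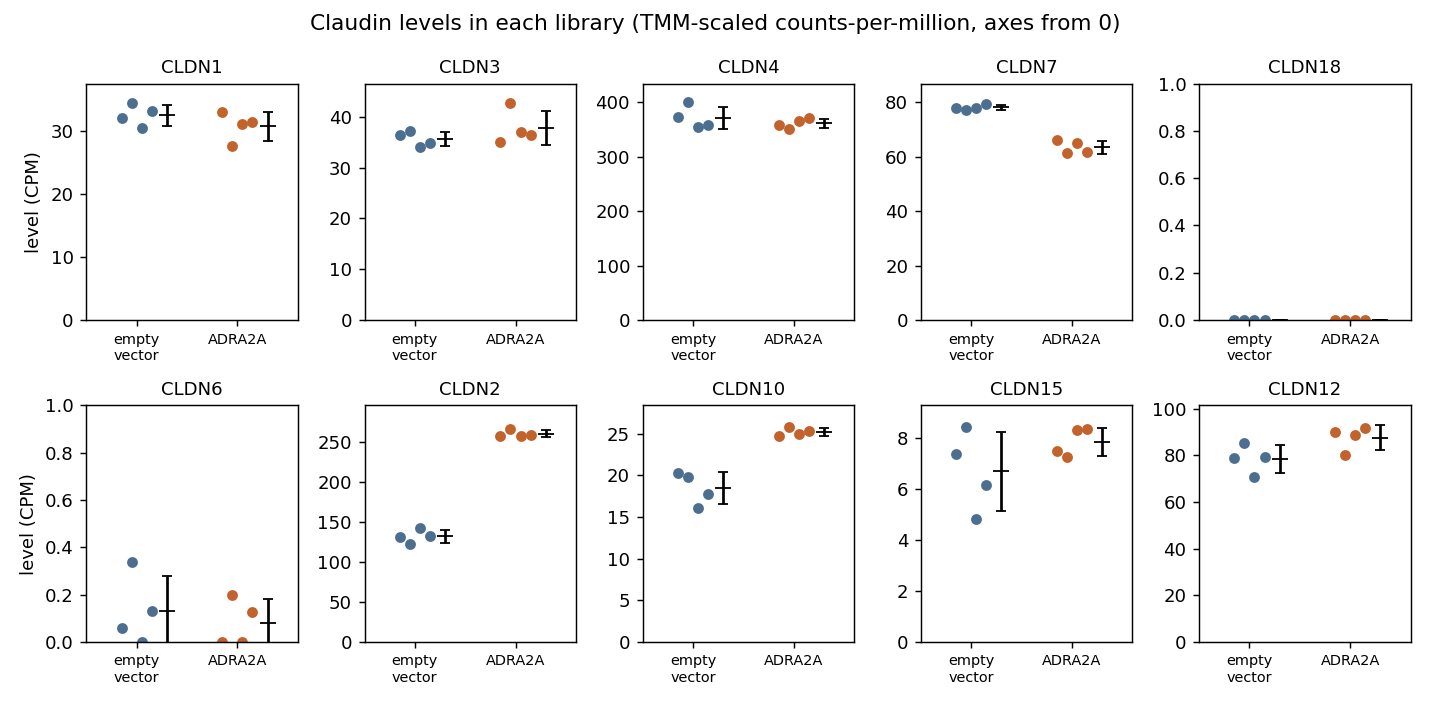
Level of each of the 10 claudin genes in CPM (vertical axis, from 0) in the 4 empty-vector and the 4 ADRA2A libraries. Points are libraries and the bars beside them are mean ± SD, cut at 0 for CLDN6. The 2 groups of points are apart for CLDN2, CLDN10 and CLDN7, and CLDN18 lies at 0 in all 8 libraries.

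Among the channel-forming members, CLDN2 (ENSG00000165376.10; GRCh38 chromosome X, 106900164 to 106930861, plus strand) makes pores for small cations and water and is typical of leaky epithelia. Its level was 131, 123, 142 and 132 CPM in empty-vector replicates 1 to 4, and 258, 267, 258 and 259.7 CPM in ADRA2A replicates 1 to 4. The lowest ADRA2A library was 1.81 times the highest empty-vector library, so the groups lay far apart. The log2 fold change of CLDN2 was 0.98 ± 0.04 (SE in edgeR; adjusted p = 3.08e-13), with a 95% interval of the fold change from 1.86 to 2.09. By p-value it ranked 38th of the 14785 genes tested, and its absolute log2 fold change exceeded that of 95% of them. The antisense gene MORC4 spans the CLDN2 locus, but its exons overlap 0 bases of the canonical CLDN2 transcript.

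RefSeq places 2 starts in CLDN2, and GENCODE adds one further downstream for the canonical transcript. The 250 bases before the second RefSeq start (GRCh38.p14, chrX:106918110-106918359, plus strand) are shown because this window lies in the member with the largest change among the 8 tested and overlaps 0 annotated exons.
CLDN2, before the second start: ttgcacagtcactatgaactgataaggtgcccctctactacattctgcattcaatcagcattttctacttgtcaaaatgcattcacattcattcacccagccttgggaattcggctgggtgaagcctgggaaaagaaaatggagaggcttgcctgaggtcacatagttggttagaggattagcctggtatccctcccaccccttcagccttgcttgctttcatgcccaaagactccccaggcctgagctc
It has no capitals because none of 7 short motifs, each searched on both strands, occurred in it. The core of sites bound by the intestinal CDX factors was searched as TTTAT. The element through which cyclic AMP acts on promoters was searched whole, as TGACGTCA, and in its shorter form contained in it, as TGACG. The E-box bound by the SNAI and ZEB repressors was searched as CAGGTG, and the site of the epithelial GRHL factors as AACNNGTT. The GC box bound by SP1 was searched as GGGCGG. The TATA box was searched as TATAAA, which on its other strand always contains the CDX core.
Before the first start, the CDX core began at position -73, counted back from the start, in a stretch at chrX:106900078-106900107 (plus strand), with the motif in capitals. Unlike the window above, this stretch overlaps 1 annotated exon.
CLDN2, before the first start: aaacaccatccagTTTATttttctcctgat
TTTAT is common, and 32.7% of the 35116 RefSeq windows of this length hold it on either strand. A match of letters describes the sequence and does not show binding.

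CLDN10 (ENSG00000134873.10; chromosome 13, 95433604 to 95579759, plus strand) has alternative first exons that give a cation-selective and an anion-selective form, which gene-level counts do not separate. It stood at 20.3, 19.8, 16.0 and 17.8 CPM in empty-vector replicates 1 to 4, and at 24.8, 25.8, 25.0 and 25.3 CPM in ADRA2A replicates 1 to 4. Every ADRA2A library lay above every empty-vector library, and the ADRA2A libraries were closer together, with a coefficient of variation of 1.78% against 10.6%. The log2 fold change of CLDN10 was 0.45 ± 0.08 (SE in edgeR; adjusted p = 8.77e-05). Its 3′ end overlaps 1558 bases of exon of DZIP1 on the other strand, and since the use of strand is not given, reads there cannot be assigned with certainty. DZIP1 itself held 9.38 counts per library on average, beside 272 to 436 for CLDN10.

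The start of the canonical CLDN10 transcript is shown for contrast with CLDN2, because its make-up differs (chr13:95552470-95552719, GRCh38.p14, plus strand; GC boxes in capitals).
CLDN10, before the canonical start: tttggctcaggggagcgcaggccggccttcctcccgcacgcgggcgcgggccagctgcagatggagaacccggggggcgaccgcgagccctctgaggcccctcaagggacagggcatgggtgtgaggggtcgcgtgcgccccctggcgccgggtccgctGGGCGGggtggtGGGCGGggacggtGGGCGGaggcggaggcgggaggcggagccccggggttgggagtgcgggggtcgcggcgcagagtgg
It held 78.0% G and C, against 48.8% in the CLDN2 window above and a median of 58.0% over all windows. That CLDN2 window is not at the canonical CLDN2 start, so the canonical starts of these genes were not compared. The GC boxes of the CLDN10 window began at positions -91, -79 and -66, and 42.6% of all windows hold at least 1. The window before the upstream CLDN10 start held 39.6% G and C and no GC box, but had a CDX core at -155 and the shorter cAMP form TGACG at -11.

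CLDN15 (ENSG00000106404.13; chromosome 7, 101232092 to 101238820, minus strand) forms sodium channels in the gut. Its levels were 7.38, 8.42, 4.82 and 6.15 CPM with the empty vector and 7.47, 7.26, 8.30 and 8.35 CPM with ADRA2A. The groups overlapped, and the empty-vector libraries varied most, with a coefficient of variation of 23.2%. At 83 to 145 counts per library, the log2 fold change was 0.24 ± 0.14 (SE in edgeR; adjusted p = 0.200), with a 95% interval from -0.07 to 0.54. A rise like that of CLDN10 lies inside this interval and one like that of CLDN2 lies outside it. The value rested on single libraries, at 0.10 without empty-vector replicate 3 (edgeR adjusted p = 0.570) and 0.36 without empty-vector replicate 2 (edgeR adjusted p = 0.0556).

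Among the sealing members, CLDN7 (ENSG00000181885.18; chromosome 17, 7259903 to 7263983, minus strand) binds EPCAM and is found along the lateral membrane as well as at the junction. Its level was 77.8, 77.1, 77.7 and 79.4 CPM in empty-vector replicates 1 to 4. In ADRA2A replicates 1 to 4 it was 66.0, 61.1, 64.8 and 61.5 CPM. All 4 ADRA2A libraries lay below all 4 empty-vector libraries, which had a coefficient of variation of 1.27%. CLDN7 had a log2 fold change of -0.30 ± 0.04 (SE in edgeR; adjusted p = 1.38e-05), a fold change of 0.813 with a 95% interval from 0.763 to 0.865. CLDN7 was the single member that fell. The canonical CLDN7 exons share 38 bases with exons of ELP5 on the other strand, which held 400.4 counts per library on average. Since the use of strand is not given, reads there cannot be assigned with certainty. Another 269 bases are shared with exons of a same-strand gene, ENSG00000262302, which had 0 counts.

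The window before the canonical CLDN7 start held the full cAMP response element and the E-box, which the RefSeq windows of CLDN2 and CLDN10 did not. The canonical CLDN2 start had no RefSeq window and was not searched. The CLDN7 stretches of 30 bases are shown for this difference between the windows searched (GRCh38.p14, minus strand, motifs in capitals). The first lies at chr17:7262576-7262605 and the second at chr17:7262479-7262508. Each of these stretches overlaps 1 annotated exon.
CLDN7, cAMP response element at position -116: tgtcccttcggTGACGTCAggtcatcctcg
CLDN7, E-boxes at positions -20 and -9: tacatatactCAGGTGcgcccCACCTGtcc
The full cAMP response element occurs in 1.6% of all windows, and among the members the windows of CLDN7 and CLDN6 hold it. The E-box occurs in 17.5% of all windows, and the CLDN7 window held it 4 times. A CLDN18 window also held the E-box, at position -99. The first RefSeq start of CLDN7 had none of the 7 motifs before it.

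CLDN4 (ENSG00000189143.9; chromosome 7, 73799542 to 73832690, plus strand), a receptor for a clostridial toxin and a seal against sodium, led the claudins per length of canonical transcript in both groups. It was at 373, 399, 354 and 357 CPM in empty-vector replicates 1 to 4 and at 359, 350.2, 365 and 370.4 CPM in ADRA2A replicates 1 to 4. The groups overlapped. The log2 fold change was -0.04 ± 0.04 (SE in edgeR; adjusted p = 0.443). Its 95% interval, a fold change from 0.921 to 1.03, is narrow, so at 5182 to 6374 counts per library a change as large as that of CLDN7 lies outside it.

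CLDN3 (ENSG00000165215.6; chromosome 7, 73768997 to 73770270, minus strand), a sealing claudin of most simple epithelia, is the neighbour of CLDN4. It had 36.4, 37.1, 34.1 and 34.9 CPM with the empty vector and 35.1, 42.6, 37.0 and 36.3 CPM with ADRA2A. ADRA2A replicate 2 was the highest and the other ADRA2A libraries lay within the range of the empty-vector ones. The log2 fold change was 0.08 ± 0.06 (SE in edgeR; adjusted p = 0.304; 95% interval from -0.05 to 0.22).

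CLDN1 (ENSG00000163347.6; chromosome 3, 190305707 to 190322446, minus strand), the claudin without which the skin barrier fails, was at 32.0, 34.3, 30.4 and 33.1 CPM with the empty vector. With ADRA2A it was at 32.9, 27.5, 31.0 and 31.4 CPM. ADRA2A replicate 2 was the lowest of the 8 libraries and the groups overlapped. The log2 fold change was -0.08 ± 0.06 (SE in edgeR; adjusted p = 0.367; 95% interval from -0.21 to 0.06).

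CLDN18 (ENSG00000066405.13; chromosome 3, 137998735 to 138033655, plus strand), a claudin of stomach and lung that many pancreatic tumours express, had 0 counts in all 8 libraries. A count of 0 among the 64422917 counts of the empty-vector group allows up to 0.0466 CPM, and among the 62914575 counts of the ADRA2A group up to 0.0477 CPM, for counting error alone. CLDN6 (ENSG00000184697.7; chromosome 16, 3014712 to 3020071, minus strand), a claudin of the embryo and of germ cell tumours, had 1, 5, 0 and 2 counts with the empty vector and 0, 3, 0 and 2 counts with ADRA2A. Neither gene passed the filter, and no difference was detectable at this depth.

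CLDN12 (ENSG00000157224.16; chromosome 7, 90383721 to 90513402, plus strand) lacks the tail motif by which most claudins bind ZO proteins and has been linked to calcium passage. Its levels were 78.7, 85.2, 70.8 and 79.1 CPM in empty-vector replicates 1 to 4 and 89.8, 80.1, 88.6 and 91.8 CPM in ADRA2A replicates 1 to 4. ADRA2A replicate 2 lay below empty-vector replicate 2, so the groups overlapped. The log2 fold change was 0.16 ± 0.05 (SE in edgeR; adjusted p = 0.0227), a fold change of 1.12 with a 95% interval from 1.03 to 1.21. This call was lost without empty-vector replicate 3 (log2 fold change 0.11, adjusted p = 0.0965), without ADRA2A replicate 4 (0.14, 0.0667) and without ADRA2A replicate 1 (0.15, 0.0615).

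**Figure D2:**
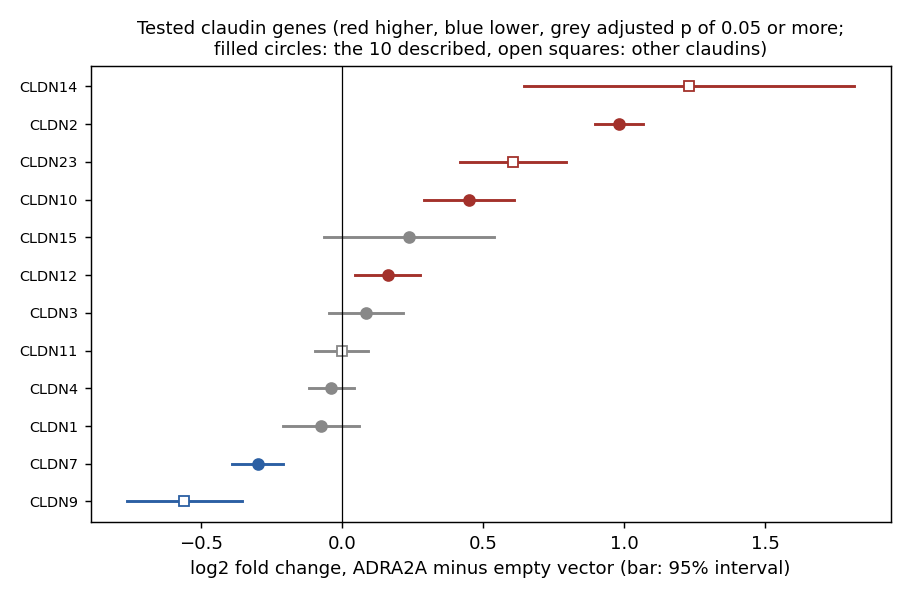
Log2 fold change (horizontal axis, ADRA2A minus empty vector) of the 12 claudin genes tested, with 95% intervals as bars. CLDN2 stands at 0.98 with a narrow interval, CLDN7 at -0.30, and the intervals of CLDN1, CLDN3, CLDN4, CLDN11 and CLDN15 cross 0.

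The members tested were compared with one another per length, as CPM per kilobase (kb) of the canonical transcript. In the empty-vector cells CLDN4 led at 219 ± 12.3 CPM per kb, followed by CLDN7 at 50.6 ± 0.641, CLDN2 at 44.6 ± 2.69, CLDN3 at 28.0 ± 1.09 and CLDN12 at 22.2 ± 1.67. CLDN1 at 9.41 ± 0.486, CLDN10 at 7.49 ± 0.792 and CLDN15 at 5.47 ± 1.27 were lower (SD, n = 4 each). The libraries of CLDN10 and CLDN15 overlapped, and those of the other neighbours in this order of members did not. In the ADRA2A cells CLDN4 stood at 213 ± 5.10 and CLDN2 was second at 88.0 ± 1.48, ahead of CLDN7 at 41.1 ± 1.57. CLDN10, at 10.2 ± 0.182, had also moved above CLDN1, at 8.92 ± 0.666 CPM per kb (SD, n = 4 each). With these canonical lengths CLDN2 and CLDN7 changed places between the groups, without overlap in either. The order depends on the length used. With the longest annotated transcript of each gene, an alternative chosen after seeing the data, CLDN2 already lay above CLDN7 in the empty-vector cells, at 44.6 ± 2.69 beside 40.6 ± 0.514 CPM per kb. With those lengths the ADRA2A libraries of CLDN2, at 88.0 ± 1.48, overlapped those of CLDN4, at 86.7 ± 2.08, and those of CLDN10 overlapped those of CLDN1. With the shortest transcripts CLDN1 stayed above CLDN10 in both groups and CLDN12 was second to CLDN4.

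The summed level of the 10 members was 387 ± 14.3 CPM per kb with the empty vector and 422 ± 4.32 with ADRA2A (SD, n = 4 each). The libraries ranged from 373 to 406 and from 417 to 427. Claudins outside the 10 are left out of the sum. The most abundant of these was CLDN11, at 34.84 CPM per kb with the empty vector and 34.75 with ADRA2A (means, n = 4 each). The sealing members CLDN1, CLDN3, CLDN4, CLDN6, CLDN7 and CLDN18 together were at 307 ± 13.4 and 293 ± 3.80 CPM per kb, with ranges of 295 to 325 and 288 to 296 that overlapped. The channel-forming members CLDN2, CLDN10 and CLDN15 together were at 57.6 ± 1.09 and 105 ± 1.41 CPM per kb and did not overlap. Their share of the summed level was 14.9% ± 0.734 and 24.8% ± 0.508, of which CLDN2 alone made 11.6% ± 1.09 and 20.9% ± 0.524. CLDN4 held 56.6% ± 1.09 and 50.4% ± 0.699, and CLDN7 held 13.1% ± 0.585 and 9.74% ± 0.383 (SD, n = 4 each). The shares also depend on length. The channel-forming share was 8.51% ± 0.373 and 14.2% ± 0.52 with the shortest transcripts, and 22.5% ± 1.14 and 35.6% ± 0.568 with the longest (SD, n = 4 each), higher in every ADRA2A library than in any empty-vector library with each of the 3 lengths. These sums are descriptions without a test, and transcript shares are not shares of protein in the junction.

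**Figure D3:**
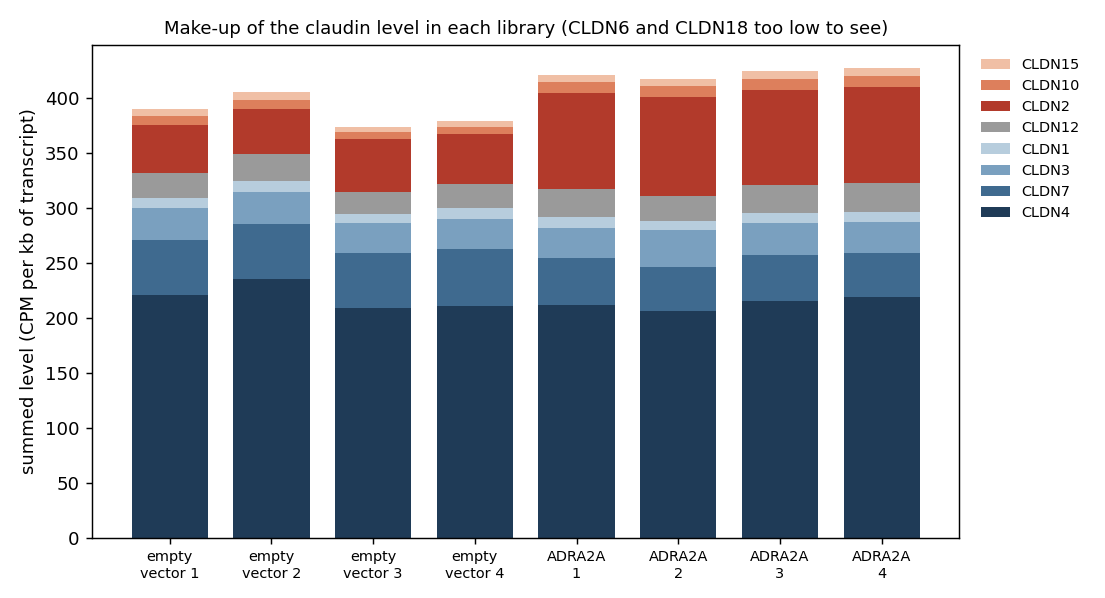
Summed claudin level in CPM per kb of canonical transcript (vertical axis, from 0) in each of the 8 libraries, divided by gene. Red tones are channel-forming members and blue tones sealing members, and the CLDN2 block is taller in all 4 ADRA2A libraries while the CLDN4 block is similar in both groups.

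For the claudins, replicates within a group were not equally placed. How often each library was the lowest or highest over all genes tested was not counted. Empty-vector replicate 3 was the lowest of its group for 9 of the 12 claudins tested, including CLDN1, CLDN3, CLDN4, CLDN10, CLDN12 and CLDN15, but the highest for CLDN2. Empty-vector replicate 2 was the highest for 8 of the 12 and the lowest for CLDN2 and CLDN7. In the ADRA2A group, replicate 2 was the lowest for 7 of the 12 and the highest for 4, CLDN2 and CLDN10 among them. Without empty-vector replicate 3, CLDN2, CLDN10 and CLDN7 kept their calls and CLDN12 lost its call, as given above.

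Of the 14 numbered claudin genes outside the list, 4 passed the filter. CLDN11, a claudin of myelin and testis, was abundant and nearly equal in both groups, at 96.1 ± 3.13 and 95.8 ± 4.98 CPM (SD, n = 4 each; log2 fold change 0.00 ± 0.04, SE in edgeR; adjusted p = 0.972). CLDN9, a claudin of the inner ear and the neighbour of CLDN6, fell from 18.7 ± 1.31 to 12.7 ± 1.85 CPM (log2 fold change -0.56 ± 0.10, SE in edgeR; adjusted p = 0.000102). CLDN23 rose from 10.1 ± 0.809 to 15.4 ± 0.896 CPM (log2 fold change 0.60 ± 0.09, SE in edgeR; adjusted p = 1.93e-05). CLDN14, a barrier claudin of the inner ear and kidney, rose at very low abundance, from 12 to 19 counts per library with the empty vector to 25 to 46 with ADRA2A (log2 fold change 1.23 ± 0.28, SE in edgeR; adjusted p = 0.00138). CLDN14 has an antisense gene with overlapping exons, so the division of its few reads is uncertain. Over the 12 claudins tested, 5 were higher and 2 lower, or 58.3% called beside 42.7% of all genes tested. In 6 of the 12 the groups were fully apart, beside 39.2% of all genes tested.

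Position along the chromosome was examined because neighbouring genes can shift together. Distances were taken between the lower coordinates of genes, which are their starts on the plus strand and their ends on the minus strand. Of the 10 tested genes within 1 Mb of CLDN2 by this measure, 5 were called higher and 2 lower. Their median log2 fold change was 0.18, beside the 0.98 of CLDN2. The sign of that median was not stable, since within 2 Mb it was -0.14. For CLDN10 the median of 8 neighbours was -0.11, opposite to its own rise, and 1 was called in each direction. For CLDN12 the median of 6 neighbours was 0.12, near its own 0.16, with 3 called higher and 2 lower, but it was 0.00 within 0.5 Mb and -0.05 within 2 Mb. For CLDN7 the median of 66 neighbours was -0.06, nearer to 0 than its -0.30. CLDN3 and CLDN4 share most of their neighbours, with medians of -0.06 and -0.05. Of 10 tested neighbours of CLDN18, itself at 0 counts, 6 were called higher and 1 lower, with a median of 0.35. Of the 62 neighbours of CLDN9, which fell, 20 were called higher and 8 lower, with a median of 0.07. Beside these counts, 42.7% of all genes tested were called, 21.6% higher and 21.1% lower. The counts and medians of neighbours are descriptions without a test.

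Claudins work with other tight junction proteins, of which 27 are reported and 25 were tested. In the ADRA2A cells 11 were higher and 5 lower, or 64% called beside 42.7% of all genes, and the median log2 fold change was 0.11. Of the transmembrane partners, OCLN (occludin), MARVELD2 (tricellulin), F11R (JAM-A), CXADR and ILDR1 rose, MARVELD3 fell, and LSR did not pass. OCLN was at 68.2 ± 2.51 and 74.3 ± 3.88 CPM (SD, n = 4 each; log2 fold change 0.12 ± 0.05, SE in edgeR; adjusted p = 0.0415), and its call was lost under several alternatives. MARVELD3 went from 10.4 ± 0.673 to 6.80 ± 0.622 CPM (log2 fold change -0.62 ± 0.11, SE in edgeR; adjusted p = 9.21e-05). JAM2 and JAM3 did not pass the filter.

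The scaffold proteins, polarity proteins and remaining partners of the junction went both ways. TJP3, which encodes ZO-3, rose from 15.3 ± 2.40 to 26.7 ± 1.45 CPM (SD, n = 4 each; log2 fold change 0.81 ± 0.09, SE in edgeR; adjusted p = 7.07e-07). TJP1, which encodes ZO-1, fell from 327 ± 8.81 to 285 ± 9.89 CPM (log2 fold change -0.20 ± 0.03, SE in edgeR; adjusted p = 0.000114). MPDZ, which encodes the scaffold MUPP1, fell by 0.56 on the log2 scale and PALS1, of the Crumbs polarity complex and listed under its older symbol MPP5, by 0.27. CGN (cingulin) rose by 0.16, and AFDN also rose but lost its call under 2 of 15 alternatives. MAGI1 passed narrowly (log2 fold change 0.19, edgeR adjusted p = 0.0472) and lost its call under 7 of 15 alternatives. CGNL1, MAGI2, MAGI3, PATJ, SYMPK and TJAP1 did not pass. Among polarity proteins PRKCI rose and PARD6B fell, while PARD3 and CRB3 did not pass. The call of PARD6B was lost under 3 of 15 alternatives. EPCAM, a membrane glycoprotein that binds claudins, rose from 470.5 ± 5.77 to 508 ± 13.1 CPM (log2 fold change 0.11 ± 0.03, SE in edgeR; adjusted p = 0.00705).

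The transcription and splicing factors chosen as acting on claudin genes or on epithelial identity numbered 22. Of these, 19 were tested, 7 higher and 5 lower. That is 63.2% called beside 42.7% of all genes tested, and the median change of the 19 was -0.05 on the log2 scale. HNF4A, an endodermal factor, rose from 16.1 ± 0.795 to 31.0 ± 1.94 CPM (SD, n = 4 each; log2 fold change 0.94 ± 0.07, SE in edgeR; adjusted p = 1.77e-09). CDX2, an intestinal factor known to act on the CLDN2 promoter, rose from 2.02 ± 0.610 to 5.67 ± 0.253 CPM (log2 fold change 1.5 ± 0.19, SE in edgeR; adjusted p = 2.95e-06). ELF3, an epithelial ETS factor, rose from 240.2 ± 12.7 to 381 ± 15 CPM (log2 fold change 0.66 ± 0.04, SE in edgeR; adjusted p = 7.73e-11). Of the repressors of epithelial genes, SNAI2 fell by 0.85 on the log2 scale (edgeR adjusted p = 1.33e-07) and ZEB1 rose by 0.61 (edgeR adjusted p = 5.18e-06), so they moved in opposite directions. KLF5, SP1 and VDR also rose, and ESRP1 and ESRP2 fell. The call of ESRP2 was lost under 3 of 15 alternatives. GATA6 (log2 fold change -0.21, edgeR adjusted p = 0.0454) and KLF4 (log2 fold change -0.21, edgeR adjusted p = 0.0484) passed narrowly, and lost their calls under 10 and 7 of 15 alternatives. The 5 lower calls became 2 without ADRA2A replicate 4 and 3 with DESeq2, while the 7 higher ones stayed at 7. FOXA1, FOXA2, GRHL1, GRHL2, OVOL1, OVOL2 and ZEB2 did not pass, and GATA4, SNAI1 and TWIST1 were too low to test. Whether any of these factors bears on a claudin gene in these cells was not tested.

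**Figure D4:**
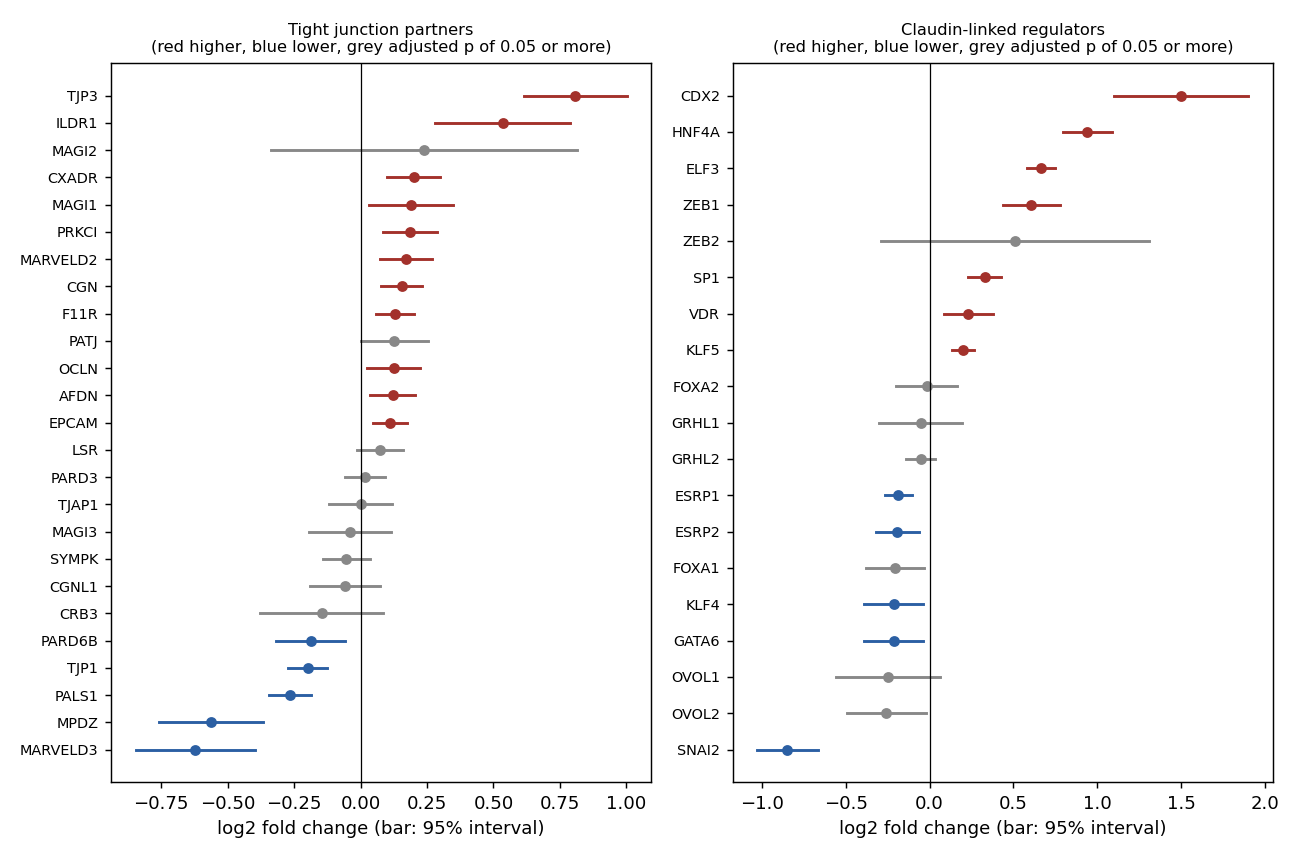
Log2 fold change (horizontal axes, ADRA2A minus empty vector) of the tested tight junction partners (left) and claudin-linked regulators (right), with 95% intervals as bars. TJP3 leads the partners at 0.81 and CDX2 the regulators at 1.5, while MARVELD3 and SNAI2 are lowest.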

How the data were processed

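Gene-level RNA sequencing values of 8 CFPAC-1 libraries were used. The authors deposited 1 table of RSEM estimated counts per gene, not scaled between samples. Per the submitters' processing notes, cutadapt, STAR, RSEM and DESeq2 were used with hg38, without versions or roles; the annotation release and the use of strand are not given in the sources used here. RSEM shares reads between similar genes, so 4.61% to 4.90% of entries had decimals. Estimated counts were rounded and all 58870 genes entered 1 fit: edgeR 4.0.16 filterByExpr (14785 genes kept), TMM factors (0.9938 to 1.0055), quasi-likelihood test with group as the single term, Benjamini-Hochberg adjustment and a threshold of 0.05. The SE is the absolute log2 fold change over the square root of F. CPM values are TMM-scaled. Positions and transcript lengths are from GENCODE release 44 (99.4% of identifiers matched), and start-site windows from RefSeq (GRCh38.p14, all 10 members matched).

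The members and gene lists were chosen with earlier results of these data known. All members, every other claudin that passed the filter, the 5 smallest p-values called in each list and OCLN, TJP1, CGN, EPCAM, HNF4A, CDX2, SNAI2 and ZEB1 were named by rule. Other names account for the rest of each list, and values given for CFTR, CD68, PTPRC, KRT7, KRT19, PECAM1, VWF, CDH5, GATA6, KLF4 and MAGI1 were chosen after they were seen. A few genes of the partner and regulator lists, and a motif, are not reported here and are left out of the counts. The fit was tested on simulated counts. These gave all genes the same spread between libraries and changed far fewer genes than were called here. They therefore do not give error rates for these data. Alternatives were DESeq2 1.42.0, RLE and upper quartile factors, limma 3.58.1 voom, 2 other filters, a block for the replicate number, and each library left out in turn. Within groups, all 12 pairs of libraries differed by more than sampling noise (chi-square over its degrees of freedom 2.12 to 4.59).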

Additional observations from a re-analysis of the deposited data

Results flagged for a closer look

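The 12 claudins tested give 24 sets of 4 libraries. In 0 of these did the highest or lowest library stand apart from the other 3 by Dixon's criterion for groups of 4.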

How the results depend on the processing

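The calls of CLDN2, CLDN7 and CLDN10, and the absence of a call for CLDN1, CLDN3, CLDN4 and CLDN15, held under all 15 alternatives with the direction kept. CLDN2 lay between 0.95 and 1.02 (log2), CLDN10 between 0.38 and 0.50 and CLDN7 between -0.32 and -0.28. CLDN12 kept its direction and lay between 0.11 and 0.20 when 1 library was left out; it lost its call in the 3 cases named above (adjusted p from 0.00508 to 0.0965 over all alternatives), which makes 3 members called in place of 4. CLDN11, near 0, changed sign when 1 library was left out (log2 fold change from -0.037 to 0.026). OCLN lost its call under 8 of the 15 (adjusted p from 0.0283 to 0.150), with DESeq2 and upper quartile factors among them. Genes called in all were 6314, between 5703 and 6042 without 1 library and between 5823 and 6550 otherwise. Partners called were 12 to 16 and regulators 9 to 13, beside 16 and 12; lower regulators alone were 2 to 6, beside 5. The difference in the summed level of the 10 members was 35.5 CPM per kb. It was 60.2 with the shortest annotated transcript of each gene and 40.25 with the longest. The sum itself rises as lengths shorten, so these differences are not on a common scale and do not rank the size of the rise. In the empty-vector cells CLDN4 alone stood at 639 CPM per kb with the shortest transcripts and 89.1 with the longest, beside 219 with the canonical ones. The rise of the channel-forming share, 9.89 percentage points, was 5.66 with the shortest transcripts and 13.2 with the longest, settings chosen after seeing the data. CLDN14 could not be fitted with the filter at a mean of 50 counts. Same-numbered libraries did not deviate together (correlations from -0.04 to 0.07; 2 of 8 libraries correlated best with their own number); with the replicate block 6400 genes were called, the same 4 members among them, and OCLN was not (adjusted p = 0.0511). For CLDN6 and CLDN18, depth set the limit.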
